A study of Mus musculus with 9 samples.

Results

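The respiratory chain of the inner mitochondrial membrane and the ATP synthase it drives are built from proteins of 2 genomes. Of the 54532 genes in the count table, of which 22046 are protein-coding, 107 were taken as members. They are the 13 protein-coding genes of chromosome MT (called MT-encoded below) and 94 nuclear protein-coding genes whose symbols start with Ndufa, Ndufb, Ndufc, Ndufs, Ndufv, Uqcr, Cox4 to Cox8 or Atp5, or are Sdha, Sdhb, Sdhc or Sdhd. By these names, complex I had 38 nuclear and 7 MT-encoded members, with 8 assembly factors (Ndufaf genes) counted apart. Complex II had 4 members, all nuclear. Complex III had 8 nuclear members and 1 that is MT-encoded, complex IV had 18 and 3, and ATP synthase had 18 and 2. A low-count filter, which kept 14004 of all genes, kept 99 members, 12 of them MT-encoded and 87 nuclear.

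The mRNA came from ST2, an established stromal line from mouse bone marrow that the labels call a mesenchymal stem cell. Wild-type cells received vehicle, 50 ng/ml recombinant human Wnt3a (rhWnt3a), or rhWnt3a and 20 μM OSMI, an inhibitor of the O-GlcNAc transferase OGT, for 72 h, and each group had 3 libraries. The titles name both agents for the last group, called rhWnt3a+OSMI here, whereas its treatment label names OSMI alone. The study calls its 3 samples a group biological replicates, and the labels do not say which cultures they came from. All groups are 1 cell line, and the data are transcript counts only. Neither protein nor respiration enters them.

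Libraries held 16135898 to 17583945 counts. Of 10 stromal markers, 8 passed the filter, with a summed level of 8529 to 24840 CPM (counts scaled to library size). Most of this sum came from Col1a1 and Col1a2, whereas Lepr and Thy1 had at most 4 counts in every library. Markers of blood cells (0.35 to 1.98 CPM summed), endothelium (0.24 to 1.28) and striated muscle (0.28 to 0.64) were low beside the stromal sum. A level of 3 counts is 0.171 to 0.186 CPM in these libraries, and of the 6 blood cell markers only Cd68 (5 to 30 counts) passed the filter. By the rule for calls given below, rhWnt3a against vehicle gave Cxcl12 and Vcam1 as lower (log2 fold change -2.31 and -0.93). Prrx1 and Twist1 were higher (0.88 and 1.04). Vcam1 was lower with rhWnt3a+OSMI than with rhWnt3a (-0.955). Against vehicle, rhWnt3a+OSMI gave Cxcl12, Vcam1 and Col1a1 as lower (-1.886, -1.887 and -1.31) and Prrx1 and Twist1 as higher (0.82 and 0.69). Of all tested genes, 8.78%, 4.74% and 14.2% were called. One library of each group stood apart over all tested genes, namely vehicle 3, rhWnt3a 2 and rhWnt3a+OSMI 3. Their mean squared log2 difference from the other 2 libraries of the group was 0.423, 0.392 and 0.439, against 0.117, 0.111 and 0.119 between those other 2. The member medians, the member calls and the counts of groups that do not overlap are given with and without them. These 3 were picked from the same data as the farthest library of each group, which leaves the 2 most alike. Fits without them therefore have a spread lowered by that choice, and their p-values and calls are no separate check.

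Complex I takes electrons from NADH and complex II takes them from succinate, complex III passes them to cytochrome c and complex IV to oxygen. Complexes I, III and IV pump protons, and ATP synthase lets the protons return and makes ATP. The genes on mitochondrial DNA are transcribed inside the organelle as long precursors from both strands and code for core subunits of complexes I, III and IV and of ATP synthase. The other subunits are transcribed in the nucleus and imported as proteins. Stromal progenitors of bone draw ATP from both glycolysis and respiration, and the balance of these is known to differ between progenitors and osteoblasts.

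MT-encoded members made up a similar share of all counts in the 3 groups. The share was 2.60%, 3.15% and 2.50% in vehicle 1 to 3, a mean of 2.75% ± 0.347 (SD, n = 3). With rhWnt3a it was 2.82%, 2.96% and 2.77%, a mean of 2.85% ± 0.0985 (SD, n = 3). With rhWnt3a+OSMI it was 2.86%, 3.21% and 2.44%, a mean of 2.84% ± 0.386 (SD, n = 3). The 3 ranges overlapped, and the means lay closer to each other than the vehicle libraries did. Counting error alone is small here: 95% Wilson intervals were at most 0.0168 percentage points wide, though reads without molecular identifiers are not independent molecules.

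Nuclear members summed to a smaller and less even share. The share was 0.528%, 0.553% and 0.693% in vehicle 1 to 3. With rhWnt3a it was 0.597%, 0.923% and 0.629%. With rhWnt3a+OSMI it was 0.599%, 0.587% and 0.284%. The highest of the 9 values belonged to rhWnt3a 2 and the lowest to rhWnt3a+OSMI 3, and the other 7 lay between 0.528% and 0.693%. The ratio of MT-encoded to nuclear counts was therefore lowest in rhWnt3a 2 (3.21) and highest in rhWnt3a+OSMI 3 (8.61), with 3.61 to 5.69 in the other 7 libraries. In bulk RNA, fewer cells of a kind and less RNA per cell cannot be told apart.

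**Figure D1:**
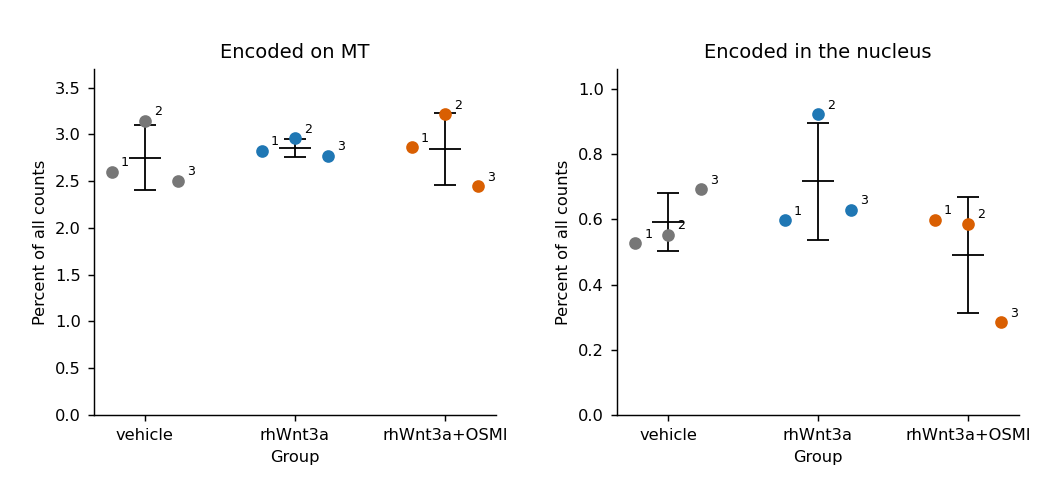
Share of all counts (y axis, percent, from 0) that fell on MT-encoded members (left) and nuclear members (right) in each library of the 3 groups (x axis), with points for libraries, labelled by number, and bars for the mean ± SD of 3. The MT-encoded share stays between 2.44% and 3.21%, while the nuclear share runs from 0.284% in rhWnt3a+OSMI 3 to 0.923% in rhWnt3a 2.

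The MT-encoded genes first have to be read against nuclear copies of mitochondrial DNA. A tract on chromosome 1 (minus strand, GRCm38) holds annotated pseudogenes with at least 99.7% identity to 7 MT-encoded genes. Over more than 95% of the gene, such a copy exists for mt-Co2, mt-Atp6, mt-Co3, mt-Nd3 and mt-Nd4l. For mt-Co1 and mt-Nd4 the chromosome 1 copy covers 483 and 876 bases, and mt-Co1 has a further copy on chromosome 2 with 97.6% identity. The stretch below, bases 311 to 371 of mt-Co2 and of its copy Gm28661 (chr1:24614885-24615565), is shown because the copies are the same letter for letter over 681 bases, so a read from within it fits both places.

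mt-Co2: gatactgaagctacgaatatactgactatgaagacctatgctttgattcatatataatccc
Gm28661: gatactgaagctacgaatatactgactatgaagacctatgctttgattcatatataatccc

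The next stretch, bases 1 to 61 of mt-Nd3 (chrMT:9459-9806) and of Gm28438 (chr1:24612775-24613119), holds the 1 difference between them over 345 bases. It is in capitals, and is T3C counted from the 5′ end of mt-Nd3. All 4 sequences are GENCODE M21 transcripts, 5′ to 3′.

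mt-Nd3: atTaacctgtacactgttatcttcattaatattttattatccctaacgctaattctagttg
Gm28438: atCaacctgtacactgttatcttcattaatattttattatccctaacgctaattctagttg

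Counts of the 12 tested MT-encoded genes fell apart along the same line. The 5 genes with a nearly full-length copy had 14 to 1673 counts in a library. The 5 genes without a copy there (mt-Cytb, mt-Nd1, mt-Nd2, mt-Nd5 and mt-Nd6) had 15519 to 92706, and mt-Co1 and mt-Nd4, with a partial copy, had 32226 to 249863. Of the summed counts of gene and copy, mt-Co2 held 55.2%, mt-Atp6 56.4%, mt-Co3 61.6% and mt-Nd4l 51.9%, while mt-Nd3 held 9.35%. Mt-Co1 and mt-Nd4 held 99.9% and 99.3%. How the counting treated reads that match in several places is not given in the sources used here, so the levels and changes of the 5 genes are uncertain.

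**Figure D2:**
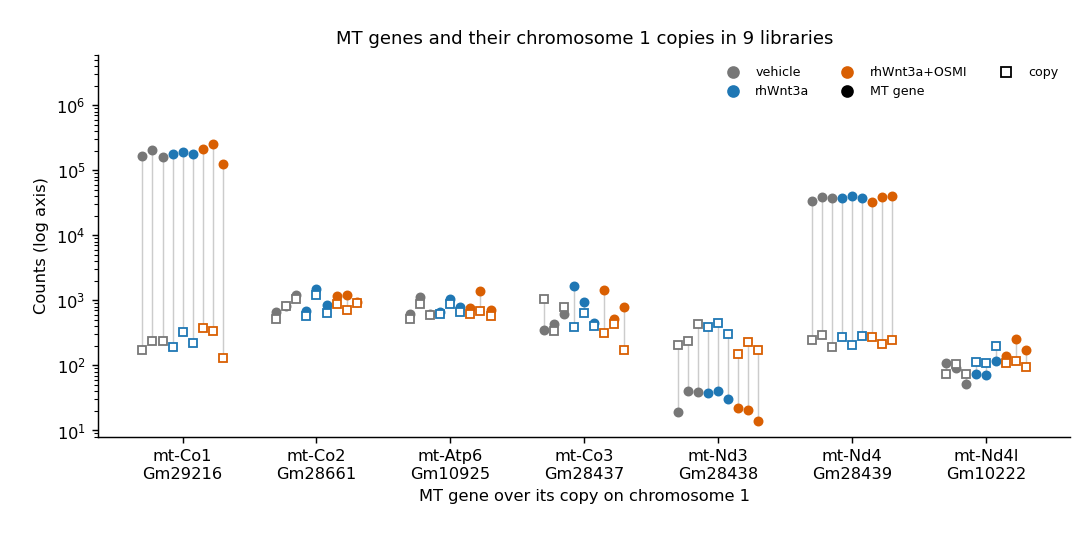
Counts (y axis, log scale) of 7 MT-encoded genes (filled circles) and of their chromosome 1 copies (open squares) in the 9 libraries, coloured by group, with a line joining gene and copy of 1 library. The pairs lie close for mt-Co2, mt-Atp6, mt-Co3 and mt-Nd4l, the copy is higher for mt-Nd3, and the gene lies far above the copy for mt-Co1 and mt-Nd4, where it holds 99.9% and 99.3% of the summed counts.

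Among genes without a nearly full-length copy on chromosome 1, mt-Co1, the catalytic core of complex IV, had the highest level per length. It had 165688, 202517 and 161216 counts with vehicle, 176278, 191602 and 178899 with rhWnt3a, and 210554, 249863 and 122733 with rhWnt3a+OSMI. The 2 highest libraries and the lowest were all from the last group, and the groups overlapped. Its level per kilobase was 6934 ± 1270, 6973 ± 67.4 and 7384 ± 2441 CPM (mean ± SD, n = 3 each). The log2 fold change was 0.01 ± 0.26 (SE) for rhWnt3a against vehicle and 0.08 ± 0.26 for rhWnt3a+OSMI against rhWnt3a, both far from the call (edgeR adjusted p = 0.99 and 0.87). Within the MT-encoded counts, mt-Co1 took 36.6% to 38.8% in the vehicle and rhWnt3a libraries, 45.6% and 45.7% in rhWnt3a+OSMI 1 and 2, and 30.05% in rhWnt3a+OSMI 3.

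Mt-Cytb, the cytochrome b of complex III, and mt-Nd1, a membrane subunit of complex I, were the 2 abundant MT-encoded genes with non-overlapping groups. Mt-Cytb had 72158, 91327 and 80747 counts with vehicle, 80788, 92706 and 80651 with rhWnt3a, and 61254, 72953 and 57560 with rhWnt3a+OSMI. Scaled for library size, each rhWnt3a+OSMI library was below every rhWnt3a and every vehicle library. The log2 fold change against rhWnt3a was -0.42 ± 0.18 (SE) and did not pass the test (edgeR adjusted p = 0.20). Mt-Nd1 had 43444, 53048 and 54840, then 50141, 66090 and 48981, and 36733, 43841 and 43765 counts in the same order of groups. Its log2 fold change against rhWnt3a was also -0.42 ± 0.17 (SE, adjusted p = 0.19).

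The other abundant complex I genes of chromosome MT differed little in the main fit. For mt-Nd2, mt-Nd4, mt-Nd5 and mt-Nd6, the log2 fold changes in the 3 comparisons ran from -0.07 to 0.23. Mt-Nd2 had 36603 to 45731 counts with vehicle, 39689 to 44832 with rhWnt3a and 40092 to 48151 with rhWnt3a+OSMI. Mt-Nd5 was lowest in vehicle 3 (42516) and rhWnt3a 2 (51346) and lay between 58150 and 75303 in the other libraries. Mt-Nd6 is the one member encoded on the opposite strand of chromosome MT, and its annotation shares 14 bases with mt-Nd5. The labels' protocol has no step that marks the strand, so its 15519 to 24403 counts may include reads from across it.

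Of the genes that share reads with a copy, mt-Nd4l, a small membrane subunit of complex I (chrMT:9877-10173), was called in 1 comparison. It had 108, 90 and 52 counts with vehicle, 75, 72 and 115 with rhWnt3a, and 140, 259 and 171 with rhWnt3a+OSMI. The last group did not overlap either of the others. It rose with rhWnt3a+OSMI against vehicle by a log2 fold change of 1.13 ± 0.34 (SE, edgeR quasi-likelihood test, Benjamini-Hochberg adjusted p = 0.049). Against rhWnt3a the difference was of the same size, 1.10 ± 0.33, with an adjusted p of 0.094. Its copy Gm10222 had 73, 105 and 74, then 114, 110 and 202, and 110, 119 and 95 counts. With the counts of gene and copy added together, the log2 fold change against vehicle was 0.78 and the call was lost (adjusted p = 0.097). Over all 19 alternatives to the main fit, the adjusted p ran from 0.0018 to 0.16 and was under 0.05 in 6.

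The other genes with copies were not called. Mt-Co3, a core subunit of complex IV, had 352, 427 and 616 counts with vehicle, 1673, 940 and 457 with rhWnt3a, and 1432, 511 and 802 with rhWnt3a+OSMI. Its copy Gm28437 had 1034, 342 and 779, then 395, 634 and 398, and 311, 435 and 173. The share of the summed reads that was given to mt-Co3 ran from 25.4% to 82.3% across libraries, the widest range of the 7 pairs. Its log2 fold change for rhWnt3a against vehicle was 1.13 ± 0.48 (SE, edgeR adjusted p = 0.22), and the groups overlapped. Mt-Nd3 had 19 to 41 counts with vehicle, 31 to 40 with rhWnt3a and 14 to 22 with rhWnt3a+OSMI. With its copy added, it was lower with rhWnt3a+OSMI than with rhWnt3a by a log2 fold change of -1.06 (adjusted p = 0.041), an alternative chosen after the data were seen. Over its 19 alternatives the adjusted p ran from 0.041 to 0.43 and was under 0.05 in 1. Mt-Co2, another core subunit of complex IV, had 667 to 1495 counts and mt-Atp6, the proton channel subunit of ATP synthase, had 611 to 1395, with log2 fold changes of 0.03 to 0.27 in the 3 comparisons. Mt-Atp8 had 0 to 10 counts and was not tested.

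Messenger RNA of nuclear members spanned a wide range. Levels per kilobase and shares per length use the deposited gene lengths, which for some members exceed those of their transcripts, so rankings by them are approximate. The median level per kilobase was 24.3 CPM with vehicle, 30.3 with rhWnt3a and 19.6 with rhWnt3a+OSMI, against 1748, 1838 and 1880 for the tested MT-encoded genes. Atp5b, the catalytic subunit of ATP synthase, was highest with vehicle (248 ± 39.0 CPM per kilobase, mean ± SD, n = 3), and Ndufa4l2 was lowest. Of the 94, 31 had another gene with at least 97% identity over at least 100 bases, and for 15 this covered over 30% of the transcript, as for Atp5o, Ndufs3, Atp5l, Atp5h and Atp5f1. Counts of these 15 are less certain.

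In the comparison of rhWnt3a with vehicle, which addresses the response of the cells to Wnt, no member passed the test (0 of 99). For a call, the log2 fold change had to exceed 0.5 in either direction with an adjusted p below 0.05. Over all tested genes 8.78% were called, 2.92% higher and 5.86% lower. At an unadjusted p under 0.05 the count was 1 member, mt-Co3, of 99, against 2793 of all 14004 genes, and the DESeq2 Wald test also called 0. Without the low-count filter 3 were called. The share of all genes called by the Wald test or without the filter was not computed. The median log2 fold change was 0.33 over the 87 nuclear members, 0.04 over the 12 MT-encoded members and 0.04 over all tested genes. It was above 0 in 79 of 87 nuclear members, against 54.6% of all tested genes.

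Groups did not overlap for 16 nuclear members, all higher with rhWnt3a, whereas 12.2% of all tested genes were higher and 14.2% lower without overlap. These 16 included 8 of complex I, 3 each of complex III and ATP synthase and 2 of complex IV. The largest nuclear difference was that of Uqcrq, the ubiquinone-binding small subunit of complex III (chr11:53427922-53430831). It had 988, 1393 and 1633 counts with vehicle, 1855, 3547 and 2014 with rhWnt3a, and 1978, 1894 and 352 with rhWnt3a+OSMI. Every rhWnt3a library was above every vehicle library, and rhWnt3a 2 was highest. The log2 fold change was 0.85 ± 0.52 (SE, edgeR adjusted p = 0.44). By complex, medians ran from 0.13 for the complex I assembly factors to 0.44 for complex III.

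The nuclear median rested in part on rhWnt3a 2. Without that library it was 0.08. Without the 3 libraries that stood apart it was 0.11, and 5 members were called, Atp5k, Cox6a2, Uqcrq and mt-Co3 as higher and Ndufaf3 as lower. Groups of the 2 libraries left did not overlap for 49 higher and 7 lower nuclear members of 87, against 36.8% and 29.9% of all tested genes. That fit has 2 libraries a group and its share of calls over all genes was not computed, so these calls are given as an alternative only.

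The comparison of rhWnt3a+OSMI with rhWnt3a addresses the addition of the OGT inhibitor to Wnt-treated cells, as far as the titles give the treatment. Here 1 of 99 members was called, Cox6a2, against 4.74% of all tested genes (1.69% higher and 3.05% lower). At an unadjusted p under 0.05 there were 27 of 99 members, 25 of them past the fold threshold, against 3160 of all 14004 genes. The count moved with the method: the DESeq2 Wald test called 8 members, and edgeR without the low-count filter called 33, of which 32 were lower. What share of all genes these alternative fits called was not computed, so the counts cannot be read as particular to the members. The median log2 fold change was -0.65 over nuclear members, 0.01 over MT-encoded members and -0.01 over all tested genes. It was above 0 in 4 of 87 nuclear and 6 of 12 MT-encoded members, against 48.5% of all tested genes.

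Cox6a2 (chr7:128205435-128206387) codes for the form of a small complex IV subunit that is typical of heart and skeletal muscle. It had 71, 76 and 161 counts with vehicle, 128, 180 and 127 with rhWnt3a, and 67, 46 and 28 with rhWnt3a+OSMI. The rhWnt3a and rhWnt3a+OSMI groups did not overlap, nor did vehicle and rhWnt3a+OSMI, once scaled for library size. With rhWnt3a+OSMI it fell by 1.62 ± 0.37 on the log2 scale (SE, edgeR quasi-likelihood test, adjusted p = 0.037). Against vehicle the difference was -1.14 ± 0.37 (adjusted p = 0.067). Without the 3 libraries that stood apart Cox6a2 was at -1.21 against rhWnt3a and was called (edgeR adjusted p = 0.00034). That p rests on a spread lowered by the choice of libraries and is no separate check. Over 19 alternatives the adjusted p ran from 5.1e-05 to 0.12 and was under 0.05 in 11. The call was lost without vehicle 2, without any 1 of the rhWnt3a libraries, without rhWnt3a+OSMI 2 and without rhWnt3a+OSMI 3, with log2 fold changes of -1.35 to -1.70 in these fits. It was also lost with only the 6 libraries compared (-1.60, adjusted p = 0.053) and with the replicate number as a block (-1.62, adjusted p = 0.11).

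The widespread isoform Cox6a1 had 1609, 2103 and 2260 counts with vehicle, 1513, 3262 and 1850 with rhWnt3a, and 2032, 1826 and 700 with rhWnt3a+OSMI. These groups overlapped in every pair (log2 fold change -0.53 ± 0.38 for rhWnt3a+OSMI against rhWnt3a, adjusted p = 0.42). Per length, Cox6a2 was 4.94% ± 1.70 of the sum of both isoforms with vehicle, 6.68% ± 1.32 with rhWnt3a and 3.26% ± 0.716 with rhWnt3a+OSMI (mean ± SD, n = 3). The lowest rhWnt3a share (5.39%) was above the highest rhWnt3a+OSMI share (3.97%). Of the striated muscle markers, Ckm, Actn2, Myh1 and Myod1 had at most 3 counts in every library, Myh7 had 0 to 5 and Tnnt2 had 0 to 8. Ucp1, Cidea and Elovl3 of brown fat also had at most 3, whereas Dio2, also on the brown fat list, was called in all 3 comparisons. Its log2 fold change was 2.50 for rhWnt3a against vehicle (edgeR adjusted p = 0.00098), -1.19 for rhWnt3a+OSMI against rhWnt3a (adjusted p = 0.049), where Cox6a2 also fell, and 1.31 for rhWnt3a+OSMI against vehicle (adjusted p = 0.026).

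Without overlap, 30 nuclear and 3 MT-encoded members were lower with rhWnt3a+OSMI than with rhWnt3a, and 1 of each kind was higher. Over all tested genes, 17.0% were lower and 16.7% higher in this way. ATP synthase gave 13 of its 17 tested nuclear members to this count, complex I 8 of 38, complex IV 5 of 12, complex III 3 of 8, complex II 1 of 4, and the assembly factors 0 of 8. The lowest ATP synthase value was that of Atp5e, the epsilon subunit of the rotor. It had 529, 529 and 539 counts with vehicle, 620, 1106 and 621 with rhWnt3a, and 417, 470 and 131 with rhWnt3a+OSMI. All libraries of the last group lay below the others, and the difference from rhWnt3a was -1.20 ± 0.39 on the log2 scale (SE, edgeR adjusted p = 0.11). For Uqcrh, the hinge protein of complex III, the counts were 705, 644 and 810, then 857, 1418 and 849, and 532, 700 and 297. Its difference was -1.03 ± 0.29 (adjusted p = 0.070).

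**Figure D3:**
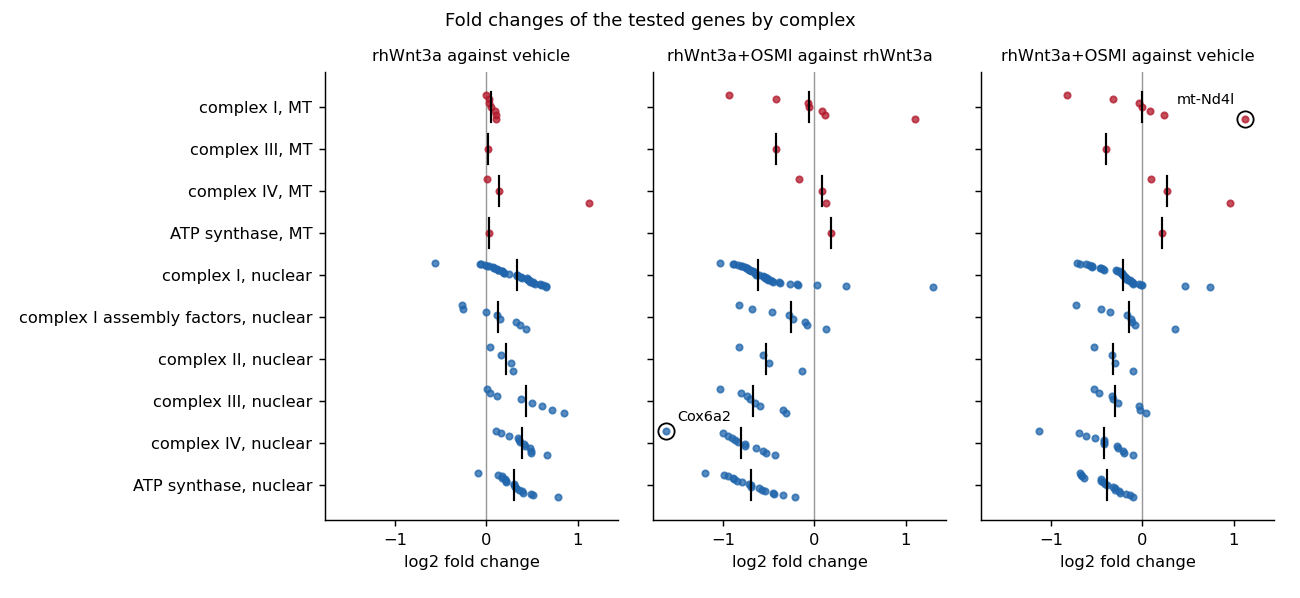
Log2 fold change (x axis) of each of the 99 tested members by complex and genome (y axis) in the 3 comparisons, with dots for genes (red MT-encoded, blue nuclear), vertical lines for medians and circles round the 2 calls, Cox6a2 and mt-Nd4l. Nuclear dots lie mostly right of 0 in the first panel (median 0.33) and left of 0 in the second (median -0.65), while the median over the 12 MT-encoded genes is 0.04, 0.01 and 0.08.

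The nuclear median of -0.65 rested on 2 libraries. Without rhWnt3a 2 it was -0.38, and without rhWnt3a+OSMI 3 it was -0.30. Without the 3 libraries that stood apart it was -0.06, and 8 members were called, with no share over all genes computed. The 8 were Atp5e, Atp5mpl, Cox6a2 and Uqcrh as lower, and Ndufa12, Ndufa4l2, mt-Co2 and mt-Nd4l as higher. Ndufa12 rested on rhWnt3a+OSMI 2 (33.9 CPM), since rhWnt3a+OSMI 1 (12.58) lay below rhWnt3a 1 (12.65). Mt-Co2 and mt-Nd4l are among the genes made uncertain by copies, and Ndufa12 is among the nuclear members made less certain by a near-identical gene. Groups of the 2 libraries left did not overlap for 30 lower and 7 higher nuclear members, against 32.2% and 32.9% of all tested genes. The difference of Atp5e was then -0.52, that of Uqcrh -0.51, that of Sdhd -0.31 and that of Atp5g2 -0.35.

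In the comparison of rhWnt3a+OSMI with vehicle, mt-Nd4l was the 1 call among 99 members, against 14.2% of all tested genes (4.84% higher and 9.34% lower). At an unadjusted p under 0.05 there were 5 members, against 4250 of all genes. The DESeq2 Wald test called 3 members, and edgeR without the low-count filter called 11, of which 9 were lower, again with no share over all genes computed. The median log2 fold change was -0.27 over nuclear members, 0.08 over MT-encoded members and -0.01 over all tested genes. Above 0 were 4 of 87 nuclear and 7 of 12 MT-encoded members, against 49.4% of all tested genes. Without overlap, 16 nuclear and 2 MT-encoded members were lower and 1 of each was higher, against 19.5% and 19.3% of all tested genes. The nuclear median was -0.02 without rhWnt3a+OSMI 3 and 0.06 without the 3 libraries that stood apart. In that last fit 7 members were called, all higher (Ndufa12, Ndufaf5, Ndufb6, Uqcrq, mt-Co2, mt-Co3 and mt-Nd4l), with no share over all genes computed. Ndufa12 again rested on rhWnt3a+OSMI 2, since rhWnt3a+OSMI 1 (12.58 CPM) lay below vehicle 2 (13.76). The MT-encoded genes named have copies, and Ndufa12 and Ndufb6 have near-identical genes over 36.2% and 39.0% of the transcript. Without overlap, 16 nuclear members were then lower and 35 higher, against 32.6% and 38.7% of all tested genes. This comparison shares its libraries with the other 2.

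Nuclear members moved as a block between libraries of the same group. Each library was set against the other 2 of its group, as a median log2 difference over the 87 nuclear members. In the vehicle group this was -0.25, -0.07 and 0.30. With rhWnt3a it was -0.37, 0.60 and -0.24, and 86 of 87 members were higher in rhWnt3a 2. With rhWnt3a+OSMI it was 0.63, 0.70 and -1.28, and 0 of 87 were higher in rhWnt3a+OSMI 3. The median over all tested genes stayed between -0.01 and 0.03.

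MT-encoded members followed this pattern less closely. Of the 12, 10 were higher in rhWnt3a 2 and 5 were higher in rhWnt3a+OSMI 3. Their median difference lay between -0.26 (vehicle 1) and 0.37 (vehicle 2), with 0.10 in rhWnt3a 2 and -0.14 in rhWnt3a+OSMI 3. Over the 9 libraries, after removal of the group mean, 72 of 87 nuclear members had a Pearson r above 0.9 with the median of the other nuclear members (median r 0.97). For the 12 MT-encoded members, r with the nuclear median had a median of 0.10 and ran from -0.53 for mt-Nd5 to 0.76 for mt-Co1. It was over 0.5 in 4 of them (mt-Co1, mt-Co2, mt-Cytb and mt-Nd3) and below 0 in 4. These correlations are descriptions over 9 libraries that share their depth and handling. Within groups, the library medians of nuclear members had an SD of 0.555 (log2) and those of MT-encoded members one of 0.149.

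**Figure D4:**
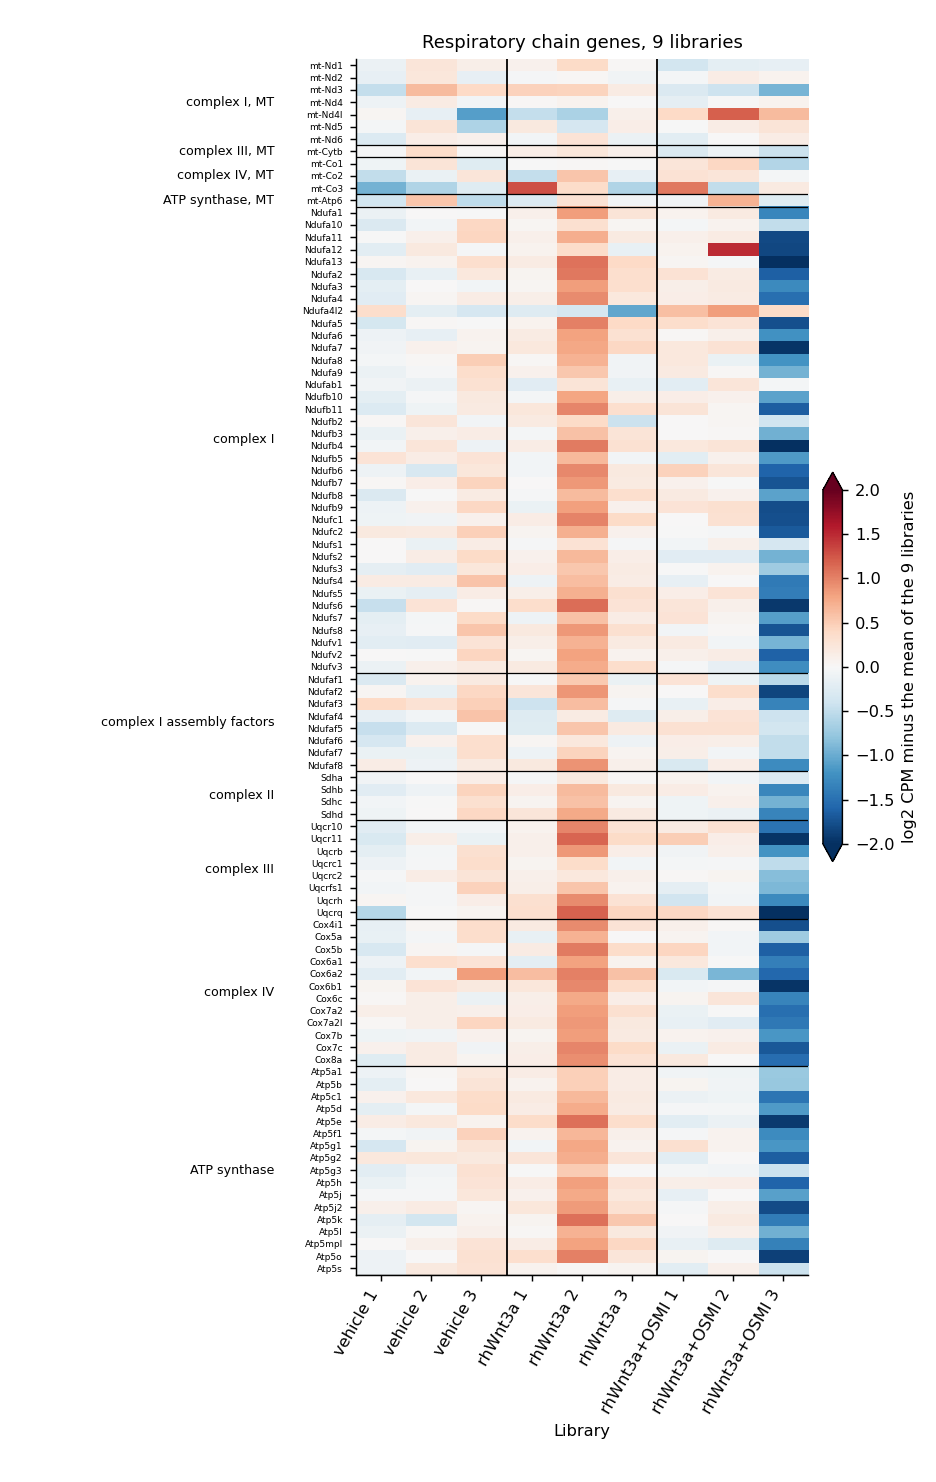
Level of each of the 99 tested members (rows, by genome and complex) in the 9 libraries (columns), as log2 CPM minus the mean of the 9 libraries, with 0.1 CPM added before the log and colours held at ±2. Nuclear rows are red nearly throughout in rhWnt3a 2 and blue in rhWnt3a+OSMI 3, and Ndufa4l2 breaks this pattern. The MT-encoded rows at the top are paler and mixed in sign.

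Gene length moved with the pattern. The median deposited length was 1701 bases for nuclear members, 870.5 for MT-encoded members and 4062 for other tested genes. In rhWnt3a+OSMI 3, nuclear members under 1 kb had a median difference of -1.61 from the other 2 libraries, and those of 4 kb and over had -0.74. Other genes of these lengths had -0.56 and 0.15. In rhWnt3a 2 the nuclear members had 0.72 and 0.50 in the same length classes, and other genes 0.34 and -0.19. In every length class the nuclear members lay farther from 0 in these 2 libraries than other genes, and other genes of 4 kb and over deviated the opposite way. With a correction for length and GC content, chosen after the data were seen, the nuclear medians were 0.22, -0.44 and -0.17 in the 3 comparisons, and the MT-encoded medians, 0.04, 0.01 and 0.08 without it, were -0.07, 0.40 and 0.43. The part of length in the differences between groups was not tested.

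**Figure D5:**
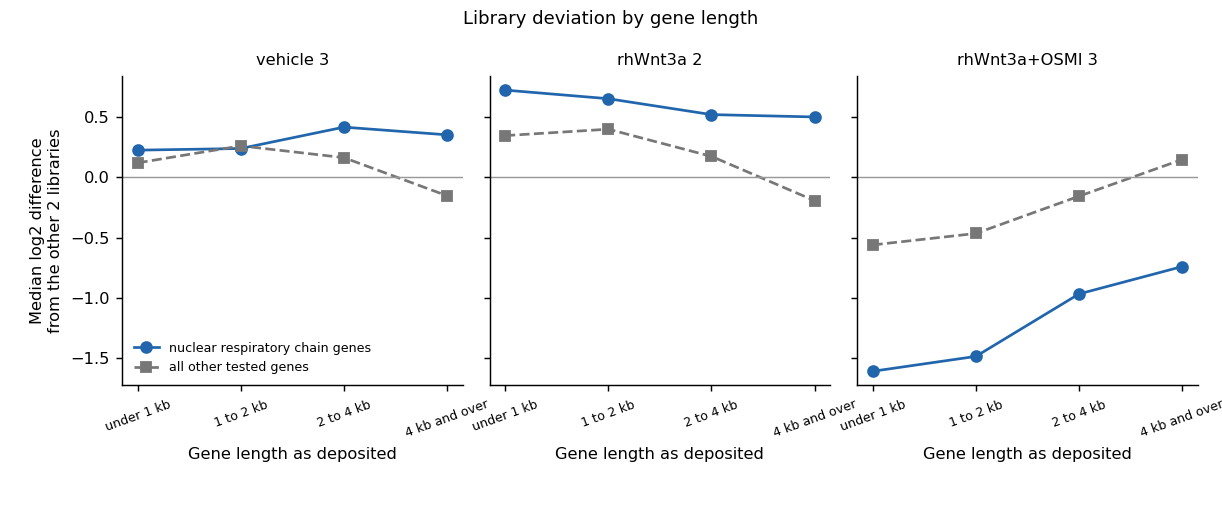
Median log2 difference of a library from the other 2 of its group (y axis) by deposited gene length (x axis) for the 3 libraries that stood apart, with circles for nuclear members (11 to 34 genes a class) and squares for all other tested genes. In rhWnt3a+OSMI 3 the nuclear line runs from -1.61 to -0.74, below the other genes in every class.

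The 4 genes of complex II, which has no MT-encoded subunit, differed in how far they took part. Sdha, the flavoprotein that oxidises succinate, had 2087, 2109 and 2596 counts with vehicle, 2154, 2698 and 2266 with rhWnt3a, and 2326, 2245 and 1910 with rhWnt3a+OSMI. It was among the most even of the nuclear members (log2 fold change -0.14 ± 0.13, SE, for rhWnt3a+OSMI against rhWnt3a, adjusted p = 0.54). Sdhd, a membrane anchor, had 422, 432 and 641, then 529, 818 and 519, and 426, 440 and 187 counts. Its last 2 groups did not overlap, with a difference of -0.83 ± 0.31 (adjusted p = 0.15). Sdhb, the iron-sulfur subunit, and Sdhc, the other anchor, had differences of -0.56 and -0.49, and their groups overlapped.

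Ndufa4l2, a paralogue of Ndufa4 known for its induction by hypoxia, ran against most nuclear members. It was among the 4 of 87 with a log2 fold change above 0 for rhWnt3a+OSMI against rhWnt3a. It had 13, 8 and 8 counts with vehicle, 8, 8 and 4 with rhWnt3a, and 16, 20 and 14 with rhWnt3a+OSMI. The last group lay above the others without overlap, at counts near the limit of the filter. The log2 fold change against rhWnt3a was 1.30 ± 0.40 (SE, edgeR adjusted p = 0.10). Ndufa4, which is now placed in complex IV although its name puts it in complex I, had 837, 963 and 1174, then 1063, 2016 and 1152, and 1079, 1166 and 358 counts. The share of Ndufa4l2 in the sum of both per length was 1.27% ± 0.571, 0.625% ± 0.275 and 2.88% ± 1.58 (mean ± SD, n = 3).

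The other complex IV isoforms of muscle, lung or germ cells were scarcely expressed. Cox4i2 had 0 to 2 counts against 1191 to 7998 for Cox4i1, and Cox7a1 had 2 to 7 against 163 to 855 for Cox7a2. Cox8b, the muscle and brown fat partner of Cox8a, had 4, 8 and 6 counts with vehicle and 0 in the other 6 libraries. Against a floor of 3 counts per library it was at least 2.05-fold lower with rhWnt3a and at least 2.07-fold lower with rhWnt3a+OSMI than with vehicle, and it was below the filter. Cox8a had 1651 to 2186, 2133 to 3958 and 709 to 2240 counts in the 3 groups. Cox6b2, Cox8c and a second gene listed as Atp5o were at 0 throughout, and Cox7b2 was at 0 except for 3 counts in rhWnt3a 2. A count of 0 allows up to 3 counts a library.

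The 3 genes for the c-ring subunit of ATP synthase, Atp5g1, Atp5g2 and Atp5g3, code for the same mature protein behind different import signals. With vehicle, Atp5g2 and Atp5g3 had 47.3 ± 0.525 and 44.5 ± 8.43 CPM per kilobase and did not differ beyond their spread, and Atp5g1 had 10.1 ± 2.03 (mean ± SD, n = 3). Atp5g2 had 1290, 1259 and 1390, then 1337, 1989 and 1358, and 976, 1198 and 372 counts. Its last group lay below the others (log2 fold change against rhWnt3a -0.88 ± 0.34, SE, adjusted p = 0.16). For Atp5g3 the difference was -0.34 ± 0.19 and for Atp5g1 -0.44 ± 0.35. Ndufa12, an accessory subunit of complex I, was picked out after its values were seen. It had 591 counts in rhWnt3a+OSMI 2 and 57 to 274 in the other 8. Another gene, Gm15920, is nearly identical to it over 36.2% of the transcript, so these counts are less certain.

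Promoters of nuclear members were searched for motifs known from respiratory genes, because the members moved together between libraries of the same group. RefSeq windows of 250 bases before to 50 after the start site (GRCm38.p6) were found for 72 of the 87 tested nuclear members. The core of the nuclear respiratory factor NRF1 motif, GCATGCG, was present on either strand in 16.7% of them and in 3.64% of all 27025 windows of this length. For the ETS motif CCGGAAG, bound by GABP, the shares were 23.6% and 9.12%, and for the YY1 core ATGGCG, which starts like a start codon, 26.4% and 9.24%. The windows of all genes include genes that did not pass the filter here and were not matched to the members in base composition. A match of letters is not a site of binding, and whether the motifs bear on the shared movement was not tested. The windows of Cox6a1 (chr5:115348909-115349208, minus strand) and Atp5k (chr5:108434350-108434649, minus strand) are shown as examples that hold the NRF1 core and the ETS motif. Capitals mark these and, in Cox6a1, the YY1 core, and the NRF1 core overlaps its own reverse complement.

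Cox6a1: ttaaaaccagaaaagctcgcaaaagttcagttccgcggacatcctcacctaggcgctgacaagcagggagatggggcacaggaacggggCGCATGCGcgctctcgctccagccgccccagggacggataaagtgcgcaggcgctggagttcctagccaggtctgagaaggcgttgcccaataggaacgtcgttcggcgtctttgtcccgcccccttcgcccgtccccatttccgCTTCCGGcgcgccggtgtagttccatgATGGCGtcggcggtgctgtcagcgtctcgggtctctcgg
Atp5k: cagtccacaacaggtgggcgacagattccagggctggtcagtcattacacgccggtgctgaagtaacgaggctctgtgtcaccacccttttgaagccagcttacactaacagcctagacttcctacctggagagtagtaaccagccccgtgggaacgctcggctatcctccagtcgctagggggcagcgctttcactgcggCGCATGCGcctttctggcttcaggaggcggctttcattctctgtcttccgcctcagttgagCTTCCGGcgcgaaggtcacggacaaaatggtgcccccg

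The factors known to act on such promoters were not called. Of 13 regulators listed, 9 were tested, among them Nrf1, Gabpa, Yy1 and Esrra, and none was called in any comparison of all 9 libraries. Of all tested genes, 8.78%, 4.74% and 14.2% were called in the 3 comparisons of all 9 libraries. Without the 3 libraries that stood apart, 1 regulator was called, with rhWnt3a against vehicle. The share over all genes in that fit was not computed. The coactivator gene Ppargc1a had at most 3 counts in every library, as had Esrrb, Esrrg and Ppara.

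Of 43 listed genes that assemble the complexes, outside the name rule, 40 were tested, and 2, 1 and 2 were called in the 3 comparisons, against 8.78%, 4.74% and 14.2% of all tested genes. Higd1a, a hypoxia-inducible factor of complex IV assembly, rose with rhWnt3a by 1.10 ± 0.25 on the log2 scale (SE, edgeR adjusted p = 0.023). With rhWnt3a+OSMI against rhWnt3a it fell by 1.60 ± 0.26 (adjusted p = 0.0094). Cox17, a copper carrier for complex IV, rose against vehicle by 0.61 ± 0.17 with rhWnt3a (adjusted p = 0.049) and by 0.81 ± 0.17 with rhWnt3a+OSMI (adjusted p = 0.010). Cox10, which makes heme for complex IV, rose by 0.58 ± 0.15 with rhWnt3a+OSMI against vehicle (adjusted p = 0.025). The medians over the 40 genes were 0.20, -0.22 and -0.13, and without the 3 libraries that stood apart they were 0.15, 0.06 and 0.14. In that fit 4 were called higher, 1 lower and 3 higher in the 3 comparisons, and the share over all genes was not computed.

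Of 20 genes for upkeep and transcription of mitochondrial DNA, 18 were tested and 3 were called, all higher with rhWnt3a+OSMI than with vehicle, where 4.84% of all tested genes were called higher. They were the DNA polymerase gene Polg (0.61 ± 0.15, SE, adjusted p = 0.023), the helicase gene Twnk (0.59 ± 0.15, adjusted p = 0.025) and the tRNA 3′ processing enzyme gene Elac2 (0.64 ± 0.13, adjusted p = 0.0082). Without the 3 libraries that stood apart, Polg was at 0.43 and no longer called, Twnk was at 0.71 and Elac2 at 0.69. The list then gave 1, 0 and 4 calls in the 3 comparisons, all higher, with no share over all genes computed. The summed level of the list was 615 to 762 CPM with vehicle, 706 to 759 with rhWnt3a and 810 to 827 with rhWnt3a+OSMI. Neither markers of mitochondrial mass (0 of 17 called) nor, apart from Mrps6, the 24 genes of the mitochondrial ribosome gave calls. Of all tested genes, 8.78%, 4.74% and 14.2% were called in the 3 comparisons. With rhWnt3a against vehicle, Mrps6 fell by 1.35 ± 0.32 (adjusted p = 0.025). Without the 3 libraries that stood apart, mass markers gave 0, 1 and 2 calls in the 3 comparisons, all higher. The ribosome genes then gave 1 lower, 1 higher, and 1 of each direction. Mrps6 was at -1.74, 1.19 and -0.55 in that fit, and the share over all genes was not computed. All 3 of the lists examined took part in the block pattern. The median difference in rhWnt3a+OSMI 3 and in rhWnt3a 2 was -1.05 and 0.49 for the ribosome, -0.60 and 0.26 for the assembly factors, and -0.47 and 0.39 for the mass markers. Of 13 tested genes listed as electron and nucleotide carriers, 1, 0 and 1 were called in the 3 comparisons. The gene called was Aox1, which was listed with them but codes for an aldehyde oxidase and not for such a carrier. It rose with rhWnt3a by 0.82 ± 0.21 (adjusted p = 0.038) and with rhWnt3a+OSMI by 1.42 ± 0.21 (adjusted p = 0.0019), both against vehicle. Without the 3 libraries that stood apart these values were 0.78 and 1.10, and 1, 0 and 4 of the 13 were called, all higher. The share over all genes in that fit was not computed.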

How the data were processed

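RNA was selected with poly-T beads and sequenced in 9 libraries. Per the submitters' processing notes, the authors used CASAVA, fastp, HISAT2 2.0.5 and featureCounts 1.5.0-p3 with the build mm10, and deposited raw counts per gene. Their own fold changes and p-values in the same table of 43 columns were not used. Genes were filtered with filterByExpr (minimum count 10, total 15), scaled by TMM and tested with edgeR 4.0.16 (quasi-likelihood, R 4.3.3, all 9 libraries, prior count 2), with Benjamini-Hochberg adjustment over 14004 genes. The procedure was tested on simulated data. DESeq2 1.42.0 was an alternative. CPM values are counts scaled to TMM library sizes. Copies were found with BLAST 2.17.0 in GENCODE M21 transcripts (at least 97% identity over 100 bases). Library totals limit precision as given in the report, and p-values measure the spread between libraries only.

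The members and lists were chosen with earlier results of these data known. Genes named were all MT-encoded genes, called members, isoform pairs, complex II, the c-ring genes, the extremes of each complex and called genes of the other lists (assembly factors, DNA upkeep, regulators, carriers, mass markers, mitochondrial ribosome, cell type markers). Atp5b, Ndufa12 and examples for promoters and similar genes were added after their values were seen.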

Additional observations from a re-analysis of the deposited data

How the results depend on the processing

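For rhWnt3a against vehicle the count of 0 became 3 without the low-count filter, 5 without the 3 libraries that stood apart and 1 at an unadjusted p under 0.05. For rhWnt3a+OSMI against rhWnt3a the count of 1 became 8 with the DESeq2 Wald test, 33 without the filter, 0 with only the 6 libraries compared, 8 without the 3 libraries and 25 unadjusted. For rhWnt3a+OSMI against vehicle the count of 1 became 0 with DESeq2 size factors, 3 with the Wald test, 11 without the filter, 0 with at least 10 counts in every library, 0 with 6 libraries, 7 without the 3 libraries and 4 unadjusted. Leaving out 1 library at a time gave 0 to 0, 0 to 2 and 0 to 1 calls. Of 2 alternatives chosen after seeing the data, the correction for length and GC gave 7 and 4 calls in the last 2 comparisons and the addition of copies 2 and 0. The share of all tested genes called was computed for the main fit only, so counts in the alternative fits have no such share beside them. The cause was not tested.

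The nuclear median for rhWnt3a+OSMI against rhWnt3a was -0.059 without the 3 libraries, and that for rhWnt3a+OSMI against vehicle turned from -0.27 to 0.06. With 1 library left out, nuclear medians ran from 0.08 to 0.44, -0.86 to -0.30 and -0.47 to -0.02, and MT-encoded medians from -0.03 to 0.18, -0.07 to 0.05 and -0.033 to 0.27. The MT-encoded medians became 0.40 and 0.43 in the last 2 comparisons with the correction for length and GC. With the replicate number as a block, 0, 0 and 0 members were called, and nuclear medians were 0.27, -0.68 and -0.36. Same-numbered libraries did not deviate together (correlations -0.49 to 0.44), so the numbers were not taken as a pairing. Counts of groups that do not overlap, and values of genes and lists outside the members, without the 3 libraries were also chosen after seeing the data.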

Other observations

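The mitochondrial ribosomal RNA genes, which code for no protein, were outside the members. Mt-Rnr1, the small ribosomal RNA, had 11214, 12227 and 15029 counts with vehicle, 16575, 26498 and 15894 with rhWnt3a, and 7072, 7776 and 2790 with rhWnt3a+OSMI. With rhWnt3a+OSMI against rhWnt3a it fell by 1.74 ± 0.35 on the log2 scale (SE, edgeR adjusted p = 0.023), and against vehicle it fell by 1.16 ± 0.34 (adjusted p = 0.048). Mt-Rnr2, the large one, had 12424, 14389 and 7249 counts with rhWnt3a+OSMI and 17926 to 31390 in the other libraries. Its log2 fold changes of -1.07 ± 0.27 and -0.89 ± 0.27 just missed the threshold (adjusted p = 0.052 in both). Without the 3 libraries that stood apart, the differences for rhWnt3a+OSMI were -1.17 and -0.79 for mt-Rnr1 and -0.63 and -0.55 for mt-Rnr2, against rhWnt3a and vehicle in turn, and all 4 were called. That choice of libraries lowers the spread, with an SE for mt-Rnr1 against rhWnt3a of 0.07 in place of 0.35, so these calls are no separate check. Both genes were lowest in rhWnt3a+OSMI 3 and highest in rhWnt3a 2, and how poly-T selection acted on them was not tested.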
